A study of Mus musculus with 8 samples.

Results

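The genes described here mark the lining of blood vessels: Pecam1, Cdh5, Kdr, Tie1, Tek, Flt1, Eng and Esam1, the last now called Esam. They were followed in RNA immunoprecipitated with DAZL from gonads of E14.5 mouse embryos. Every non-control probe that carries one of these names was taken, which gave 16 of the 41174 non-control probes of the array for the 8 genes. The rule that picks the probes uses names and no measured value.

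In RNA immunoprecipitation (RIP), an antibody draws an RNA-binding protein from cell extract, and the RNA recovered with the protein (IP) is measured next to the RNA of the extract before the pull-down (input). Lots of 50 gonads of strain MCH, XX or XY, were used at E14.5, and no altered allele is named in the labels of any group. The 8 arrays formed 4 groups of 2: XX input, XX IP, XY input and XY IP. All IPs were made with an antibody against DAZL, with 5% of the lysate kept as input, and the labelling reactions started from 50 ng of RNA for the inputs but only 1 ng for the IPs. No IP with a control antibody was analysed here, so the values give recovery relative to the input and not binding. The sources do not say whether the 2 arrays of a group came from separate lots of gonads, so p-values measure the spread between these arrays, which may be technical. The XX arrays lay on 1 slide and the XY arrays on another, so sex and slide cannot be told apart.

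Endothelial cells line every vessel and sense growth factors through a few dedicated receptors. KDR is the main signalling receptor for VEGF-A, FLT1 binds the same ligand tightly and is also made as a secreted form that holds it back, and TEK with its partner TIE1 responds to the angiopoietins. Endoglin (Eng) is a co-receptor for ligands of the TGF-β family. Cdh5 (VE-cadherin), Pecam1 and Esam1 encode adhesion proteins of the junctions between endothelial cells. In the fetal gonad, endothelial cells enter from the neighbouring mesonephros, and in XY gonads they build a prominent artery under the surface. DAZL is made by the germ cells and is not known as a product of endothelial cells. Pecam1 is also known on fetal germ cells, platelets and leucocytes.

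Levels are given as log2 signal relative to the 75th percentile of the same array, so that 0 is the 75th percentile, and a probe counts as detected on an array when the scanner software marked it well above background. The IP arrays were dim. Their number of detected probes was 6068 to 9468, against 16713 to 20391 on the inputs, and the lowest level of any detected probe was 0.03 to 1.02 on the IPs against -3.59 to -2.34 on the inputs. A transcript with a low level in the input could therefore not be seen to fall. Where no IP array of a sex detected a probe, the fall is given as "at least", against the lowest level of any detected probe on those arrays. Some probes slightly above that level were also undetected, so these bounds are approximate. The same offset lifts undetected probes: the 8 member probes detected on no array stood at -2.30 to -0.57 in the IPs and at -5.91 to -2.78 in the inputs, although their unscaled signals spanned 2.46 to 5.47 units and 2.55 to 11.3 units. No rise is read from such values.

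Of the 8 endothelial genes, 5 had a transcript that was detected throughout the inputs, which does not show the cells it came from. The strongest probes of Kdr, Cdh5, Flt1, Eng and Esam1 were detected on all 4 input arrays. No probe of Pecam1 or Tie1 was detected on any array, and neither probe of Tek was detected on both arrays of any group. On the inputs 5 to 8 of the 16 probes were detected, and on the IPs 0 to 3. For testing, a probe had to be detected on both arrays of at least 1 group, which 7 probes of 5 genes were, among 18265 probes in all.

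**Figure D1:**
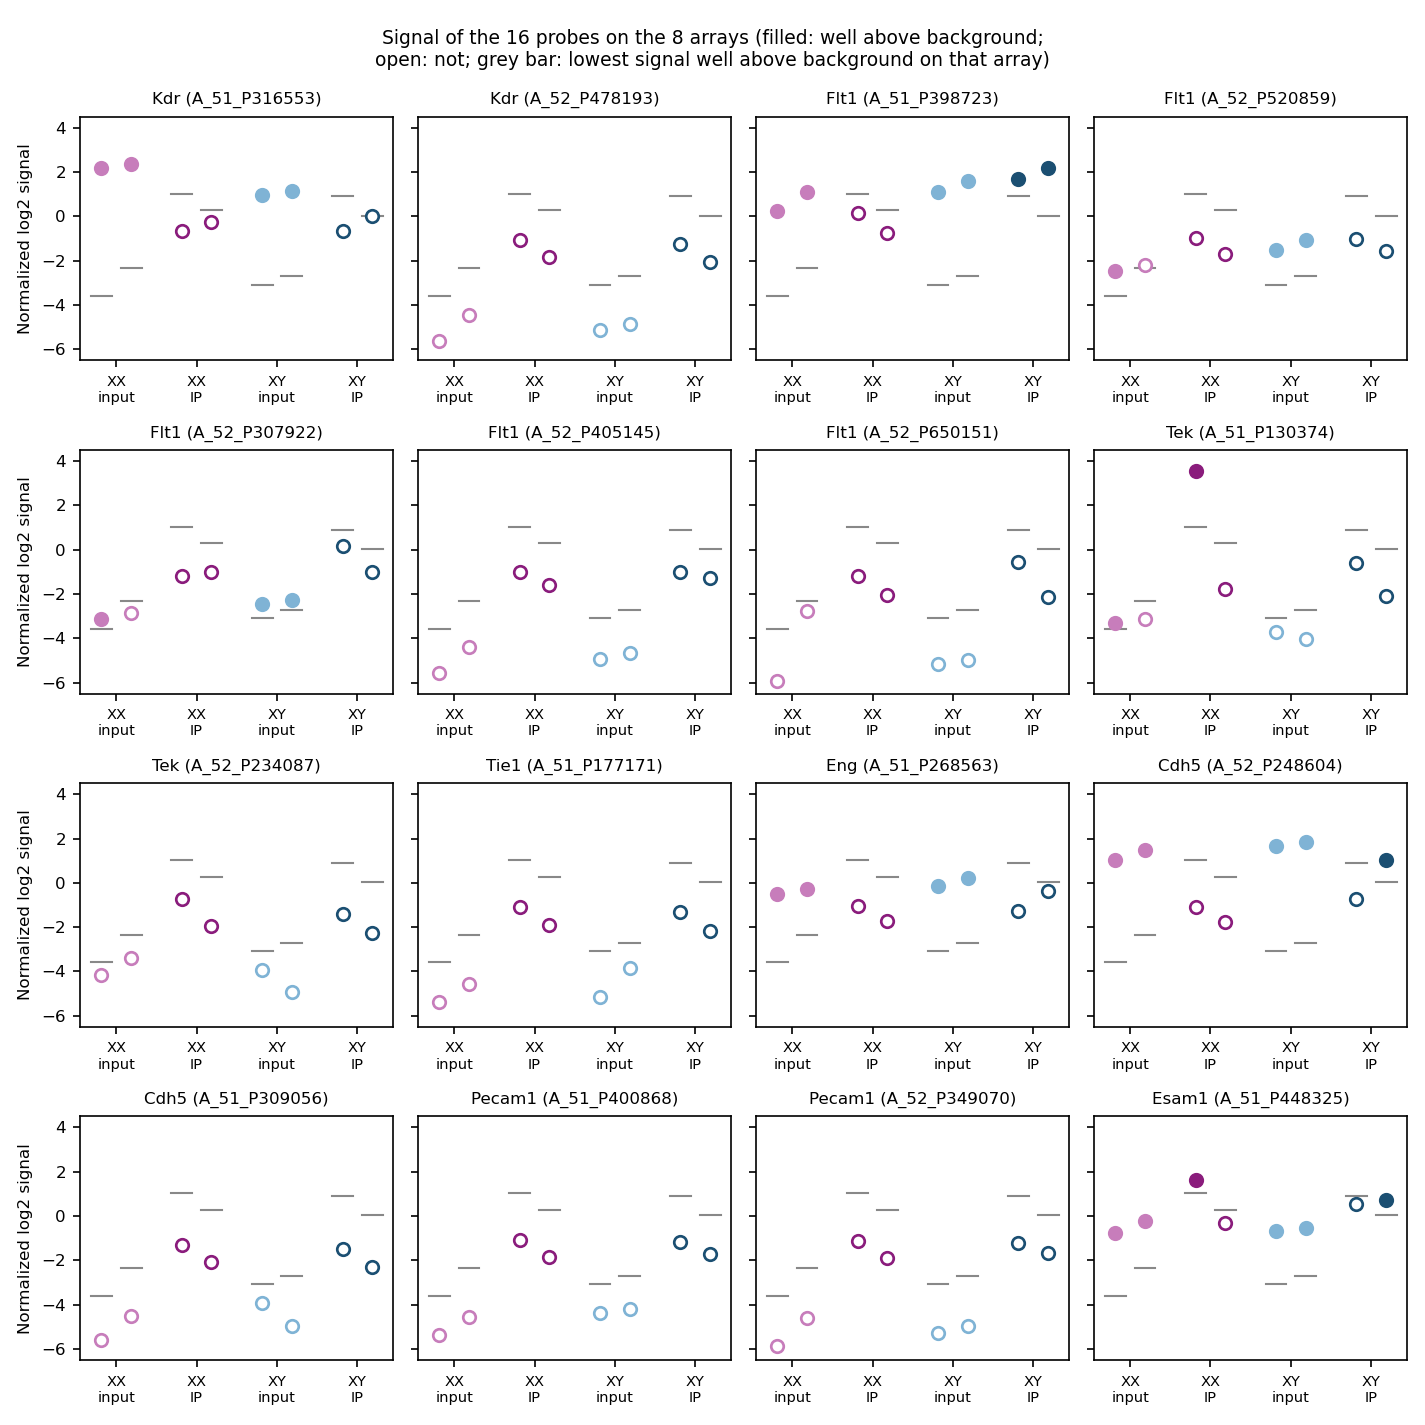
Normalized log2 signal (vertical axes) of each of the 16 probes on the 8 arrays, 2 points per group; filled points were well above background, open points were not, and the grey bar marks the lowest level of any detected probe on that array. Kdr and Cdh5 each have a probe filled on all 4 inputs and low on most IPs, while the probes of Pecam1 and Tie1 are open throughout.

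Kdr stood high in the input of both sexes and fell in both IPs. Its probe A_51_P316553 (chromosome 5, 76214981 to 76215040, minus strand) read 2.19 and 2.37 in XX input and -0.68 and -0.24 in XX IP. In XY input it read 0.98 and 1.16, and in XY IP -0.65 and 0.03. In each sex both IP arrays lay below both inputs, and no IP array detected the probe. In XX gonads Kdr fell by 2.74 log2 units (SE 0.41, adjusted p = 0.000338), which is at least 3.09-fold lower than the input against the mean of the lowest detected levels of the 2 XX IP arrays. In XY gonads it fell by 1.38 (SE 0.41, adjusted p = 0.019), at least 1.52-fold on the same terms. With 1 common floor for all arrays, the highest such level of any array, the XX difference was smaller, at -1.26, and still passed (adjusted p = 0.0014), while the XY difference was -0.07 and did not pass. The XX call held under all 19 alternatives in processing that gave it a value, with values from -4.75 to -1.26. The XY call was lost in 5 of 19, among them each of 3 that left out 1 array (XY input replicate 1 or 2, or XY IP replicate 1), with a difference of -1.72 to -1.04 over all fits that left out an array.

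This Kdr probe is printed 10 times on each array, so its technical error can be read directly. The mean spot signal was 787 ± 54.4 units (SD over 10 spots) and 400 ± 18.0 in XX input, and 234 ± 12.3 and 181 ± 13.7 in XY input. All 10 spots were above background on each input, with a coefficient of variation of 4.49% to 7.56%. On the IPs the means were 5.62 ± 1.43 (9 spots, 1 left out as an outlier) and 10.6 ± 2.89 in XX, and 4.36 ± 1.82 and 13.4 ± 1.82 in XY. The spot left out, at 22.0 units, was marked above background. Of the IP spots kept only 2, on XY IP replicate 2, were above background. Spots of 1 array share its RNA and are not replicates of the condition. A further probe named Kdr, A_52_P478193, lies 28330 bases upstream along the gene (76243311 to 76243370) and matches a cDNA clone. It was printed 10 times as well. After outlier spots were left out (2 of 10 on XY IP replicate 1, 1 of them marked above background at 34.8 units), none of its spots was above background on any array and its mean signals were 2.79 to 4.25 units, so it gave no reading of Kdr in either fraction.

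**Figure D2:**
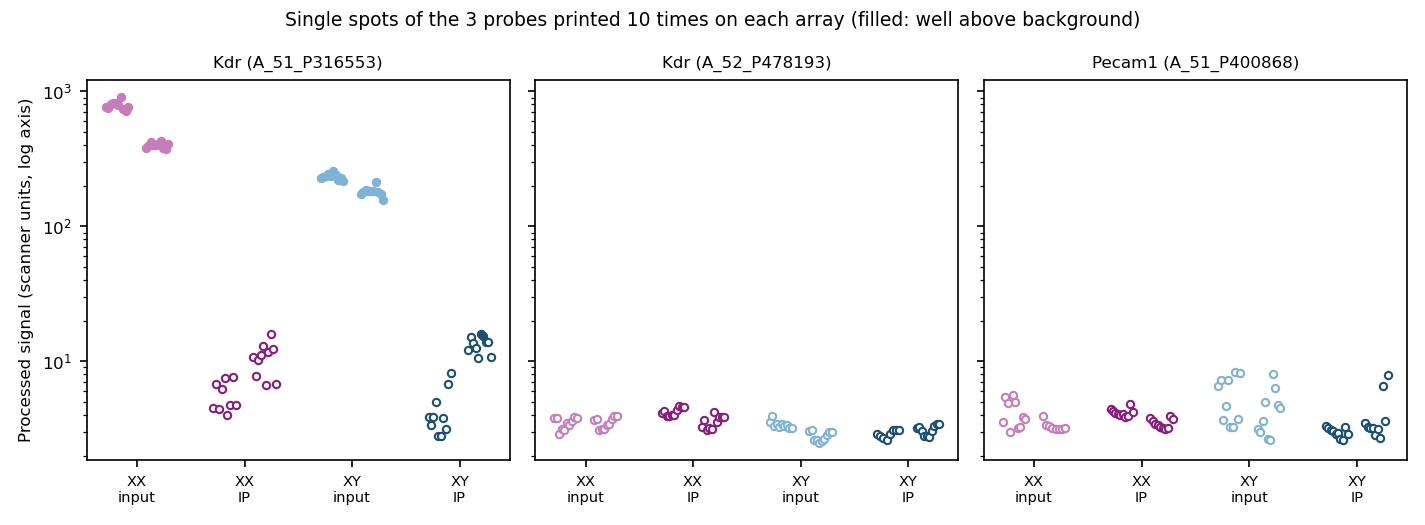
Processed signal of single spots (vertical axis, scanner units, log scale) for the 3 member probes printed 10 times, in the 4 groups with 2 arrays each; filled spots were well above background, and spots marked as outliers are not drawn. The first Kdr probe separates inputs (157 to 904 units) from IPs (2.78 to 15.9 units), while all drawn spots of the other Kdr probe and of Pecam1 are open and stay under 10 units.

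Cdh5, the cadherin of endothelial junctions, fell in both IPs as well. Probe A_52_P248604 (chromosome 8, 107033388 to 107033447, plus strand) read 1.02 and 1.48 in XX input and -1.09 and -1.77 in XX IP. In XY gonads it read 1.65 and 1.84 in the input and -0.75 and 1.02 in the IP. Both IP arrays lay below both inputs in each sex, but XY IP replicate 2 detected the transcript and the other 3 IP arrays did not. In XX gonads Cdh5 fell by 2.68 (SE 0.55, adjusted p = 0.0021), at least 1.51-fold against the lowest detected levels of those arrays. This call was lost in 2 of 19 alternatives, the common floor (-0.23) and the test without moderated variances. In XY gonads it fell by 1.61 (SE 0.55, adjusted p = 0.035). The XY call was lost in 8 of 19 alternatives, among them each fit without XY input replicate 1 or 2 or XY IP replicate 1, and the difference without 1 array ran from -2.49 to -0.72. The other Cdh5 probe, A_51_P309056, lies 660 bases upstream (107032728 to 107032787) and was detected on no array. It read -5.60 and -4.49 in XX input, -1.31 and -2.08 in XX IP, -3.94 and -4.99 in XY input, and -1.47 and -2.30 in XY IP.

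Flt1, the other VEGF receptor among the members, was measured by 5 probes on the minus strand of chromosome 5, of which 2 were detected on no array and 2 more on no IP array, so most of them cannot be set against each other. The 3′-most probe, A_51_P398723 (147872564 to 147872623), was the brightest. It read 0.23 and 1.13 in XX input and 0.16 and -0.74 in XX IP, where neither array detected it, and 1.10 and 1.62 in XY input and 1.69 and 2.19 in XY IP, where both did. It was thus the only member probe detected on both arrays of an IP group. In XX the IP stood at -0.97 relative to the input (SE 0.48, adjusted p = 0.112). In XY it stood at 0.58 (SE 0.48, adjusted p = 0.350), and neither value passed.

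Probe A_52_P520859 lies 73 bases from it (147872637 to 147872696). It read -2.46 and -2.21 in XX input, -0.99 and -1.68 in XX IP, -1.52 and -1.06 in XY input, and -1.01 and -1.56 in XY IP, with no IP array detecting it. The fitted XX difference was 1.00 (adjusted p = 0.070), while that of XY gonads was 0.004 (adjusted p = 0.995). Since neither XX IP array detected this probe or its neighbour, their XX values, 1.00 and -0.97, are not read against each other.

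The third tested Flt1 probe, A_52_P307922, lies 75990 bases upstream (147948554 to 147948613) and matches a cDNA clone. It read -3.12 and -2.87 in XX input, -1.21 and -1.01 in XX IP, -2.47 and -2.27 in XY input, and 0.15 and -1.01 in XY IP. The fitted difference was 1.88 for XX gonads (SE 0.45, adjusted p = 0.0049). For XY gonads it was 1.94 (SE 0.45, adjusted p = 0.0056), so both were past the threshold. No IP array detected this probe, each IP value stood below the lowest detected level of its array, and no fold is given. Of 19 alternatives, 15 kept the XX call, 2 lost it, and scaling to the 50th percentile and quantile normalization turned its value to -0.12 and -0.15. The XY call was lost in 6 of 19, among them the fit without XY input replicate 1. The remaining Flt1 probes, A_52_P650151 (83341 bases upstream) and A_52_P405145 (92185 bases upstream), were detected on no array. The first read -5.91 and -2.78 in XX input, -1.19 and -2.04 in XX IP, -5.18 and -4.99 in XY input, and -0.57 and -2.13 in XY IP. The second ranged from -5.57 to -4.39 over the input arrays and from -1.62 to -0.99 over the IP arrays.

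Eng, the TGF-β co-receptor, was near the 75th percentile in the inputs and detected on no IP array. Probe A_51_P268563 (chromosome 2, 32503799 to 32503858, plus strand) read -0.50 and -0.27 in XX input, -1.06 and -1.74 in XX IP, -0.14 and 0.21 in XY input, and -1.28 and -0.37 in XY IP. The groups did not overlap in either sex. The XX difference was -1.01 (SE 0.45, adjusted p = 0.079). The XY difference was -0.86 (SE 0.45, adjusted p = 0.141), and neither passed. The mean input levels were -0.38 in XX and 0.03 in XY, under the mean of the lowest detected levels of the IP arrays (0.65 and 0.47). No lower bound on a fall of Eng can therefore be given.

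Esam1, an adhesion molecule of endothelial junctions and platelets, had higher mean readings in the IPs than in the inputs, which did not pass. Probe A_51_P448325 (chromosome 9, 37287630 to 37287689, plus strand) read -0.77 and -0.24 in XX input and 1.64 and -0.30 in XX IP, with only the first IP array detecting it. In XY gonads it read -0.68 and -0.53 in the input and 0.56 and 0.71 in the IP, with only the second detecting it. The XX groups overlapped and the XY groups did not. The XX difference was 1.17 (SE 0.56, adjusted p = 0.101). The XY difference was 1.24 (SE 0.56, adjusted p = 0.094). Without XX IP replicate 2 the XX value was 2.14 (adjusted p = 0.0041), and without XX IP replicate 1 it was 0.20 (adjusted p = 0.715). In each of these fits the lone IP array was assumed to vary like the other groups, so the XX result rests on which of the 2 IP arrays is read.

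Pecam1 and Tie1 gave no reading. The first Pecam1 probe, A_51_P400868 (chromosome 11, 106497165 to 106499018, minus strand, split over a gap in the genome), is also printed 10 times, and its mean signal was 2.99 to 5.63 units with no kept spot above background on any of the 8 arrays. It read -5.37 and -4.55 in XX input, -1.10 and -1.86 in XX IP, -4.40 and -4.21 in XY input, and -1.19 and -1.72 in XY IP. The other probe, A_52_P349070 (106497834 to 106497893), lies inside that gap and the files describe it as a product of another gene, ADAM28, so it may not read Pecam1 at all. It was detected nowhere either and ranged from -5.87 to -4.60 on the inputs and from -1.92 to -1.12 on the IPs. The Tie1 probe, A_51_P177171 (chromosome 4, 117969459 to 117969518, minus strand), read -5.38 and -4.55 in XX input, -1.10 and -1.88 in XX IP, -5.16 and -3.84 in XY input, and -1.31 and -2.17 in XY IP. These probes leave the levels of both genes unknown, since an undetected probe does not show that its transcript was absent.

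Tek, the angiopoietin receptor, was at the edge of detection, apart from 1 reading. Probe A_51_P130374 (chromosome 4, 94366188 to 94366246, plus strand) read -3.33 and -3.14 in XX input, 3.56 and -1.80 in XX IP, -3.72 and -4.02 in XY input, and -0.60 and -2.08 in XY IP. It was detected on XX input replicate 1 and on XX IP replicate 1 and on no other array. The 3.56 comes from a single spot, and the other XX IP array did not repeat it, so the probe was not tested. The other Tek probe, A_52_P234087, lies 132374 bases upstream (94233814 to 94233873) and was detected nowhere, with input levels of -4.95 to -3.37 and IP levels of -2.27 to -0.75.

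**Figure D3:**
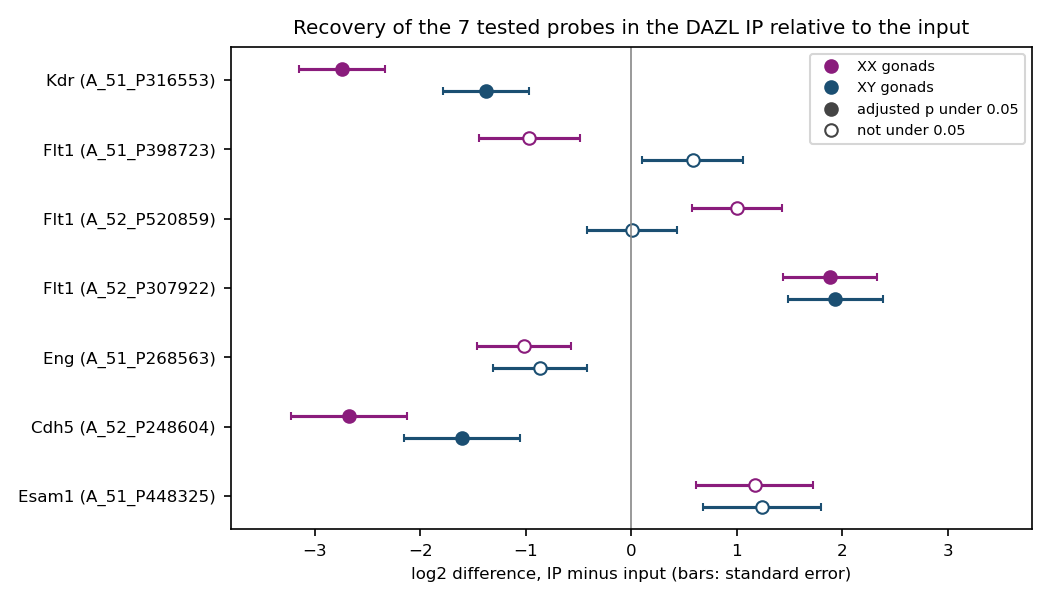
Log2 difference of IP minus input (horizontal axis, bars are standard errors from the limma fit) for the 7 tested probes in XX and XY gonads; filled points have an adjusted p under 0.05. Kdr and Cdh5 lie to the left of 0 in both sexes, from -2.74 to -1.38, and the filled Flt1 points to the right come from a probe that no IP array detected.

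Over the 7 tested probes, 2 fell in XX IP (Kdr and Cdh5) against a background of 22.8% of all tested probes that fell there. Only 1, the Flt1 probe A_52_P307922 that no IP array detected, passed upwards, against 25.9%. In XY IP the same 3 probes passed in the same directions, with backgrounds of 20.6% lower and 20.2% higher. With a 4-fold minimum added, 2 probes fell in XX (background 9.91%) and none in XY (background 7.68%), and none rose in either sex (14.0% and 10.2%). The fitted falls of Kdr and Cdh5 in XY, past the threshold by limma, were under that minimum. No XY IP array detected Kdr and only 1 detected Cdh5, so larger falls could not be seen. Both IP arrays lay below both inputs for 4 of the 7 probes in XX and 3 in XY, where 37.5% and 37.1% of all tested probes did. The reverse order was seen for 2 probes in XX and 3 in XY, against 40.2% and 35.4%. In each sex 4 of the 7 were detected on both inputs and on neither IP, against 41.8% of all tested probes in XX and 42.7% in XY. The median difference of the 7 probes was -0.97 in XX, where it was 0.09 over all tested probes, and 0.004 in XY, where it was -0.03. The share of fitted 4-fold falls in XX was above its background but rests on 2 probes that no XX IP array detected. Their falls were bounded only at 3.09-fold (Kdr) and 1.51-fold (Cdh5). No count over 7 probes is read as differing from its background.

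The sexes were compared directly. No member probe passed in the difference between XX and XY recovery, where 2.18% of all probes passed upwards and 1.12% downwards. By limma, 2 reached an unadjusted p under 0.05. For Kdr the fitted value was -1.36 (95% interval -2.62 to -0.10, adjusted p = 0.262), but no IP array of either sex detected Kdr, so this value does not show that its recovery differed. With the common floor Kdr passed as lower in this difference (-1.19, adjusted p = 0.0099), the IPs of both sexes then standing at the floor. The 3′-most Flt1 probe, detected on both XY and neither XX IP array, had a difference of -1.55 (95% interval -3.02 to -0.08, adjusted p = 0.275). The other 5 had intervals that included 0, such as -2.77 to 0.62 for Cdh5.

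In the inputs alone, Kdr was the member whose XX level stood clear above XY, by 1.21 (SE 0.41, adjusted p = 0.081), which did not pass. Its XX inputs were both above its XY inputs. It passed in several alternatives, including the fit to the 4 input arrays alone (adjusted p = 0.0040), the common floor (adjusted p = 0.0036) and the fit with the replicate number as a block (adjusted p = 0.039). In the fit to the input arrays alone, the Flt1 probes A_52_P520859 (-1.05, adjusted p = 0.015) and A_52_P307922 (-0.62, adjusted p = 0.032) passed as lower in XX. Both were detected on only 1 XX input and on no IP array, and entered testing only through XY input, where they were higher. Their calls are not read as a sex difference. In the main fit the tested probes other than Kdr ran from -1.05 (the Flt1 probe A_52_P520859, adjusted p = 0.152) to 0.10 (Esam1, adjusted p = 0.950). None of the 7 passed there, while 5.87% of all probes were higher and 6.1% lower in XX. By limma, 2 reached an unadjusted p under 0.05 (Kdr and A_52_P520859). In whole gonads, fewer endothelial cells and less RNA per cell cannot be told apart.

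The wider vascular programme was followed in 76 companion genes in 5 lists, all on the array, of which 59 had a tested probe. Of these, 23 fell and 8 passed upwards in XX IP, and 18 fell and 6 passed upwards in XY IP, with medians of -0.93 and -0.59. Over all tested probes 22.8% fell and 25.9% rose in XX and 20.6% fell and 20.2% rose in XY, and the list and marker counts that follow are to be read beside these shares. Of the falls, 14 genes were shared, which is 60.9% of the XX list and 77.8% of the XY list. Over all tested probes, those that fell in both sexes were 67.2% of the XX falls and 74.5% of the XY falls. No companion gene passed in opposite directions in the sexes. Detection limited these counts as it did for the members: 56 of the 59 genes were detected on both XX inputs and 14 on both XX IPs, and in XY 59 and 15. No XX IP array detected 19 of the 23 genes that fell in XX, and no XY IP array detected 7 of the 18 that fell in XY. The counts moved with single arrays: without XX input replicate 2 only 11 fell in XX, and without XY input replicate 1 or 2 only 4 and 2 fell in XY.

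Among junction and adhesion genes, 8 of 14 fell in XX and 6 of 14 in XY, and 1 rose in each (Ctnnb1, which encodes β-catenin, a partner of cadherins in many cell types). Cd34, a surface sialomucin of endothelium, read 2.72 and 3.18 in XX input and -1.03 and 0.29 in XX IP and fell by 3.32 (SE 0.58, adjusted p = 0.00088), at least 4.89-fold. Icam2, an endothelial adhesion molecule, fell by 2.30 in XY (SE 0.42, adjusted p = 0.0015), at least 1.58-fold. With the common floor the call was lost for Cd34 in XX (-1.92, adjusted p = 0.080) and for Icam2 in XY (-0.10, adjusted p = 0.637). The list's median was -1.63 in XX and -1.31 in XY, but only 3 of the 14 genes were detected on both XX IPs and 4 on both XY IPs, so the lists are not ranked by their medians.

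Among receptors and co-receptors, 5 of 13 fell and 2 passed upwards in XX, and 2 fell and 1 rose in XY. Robo4, a guidance receptor of endothelium, read 2.49 and 2.93 in XX input and -1.31 and -0.07 in XX IP. It fell by 3.40 in XX (SE 0.71, adjusted p = 0.0024), at least 4.17-fold, and by 2.62 in XY (adjusted p = 0.012), where 1 IP array detected it. With the common floor the XX difference was smaller, at -1.69, and still passed (adjusted p = 0.0076). Among ligands of these receptors, 4 of 8 fell in XX and 3 in XY. In XX 2 passed upwards (Pgf and Tgfb1) but no XX IP array detected them, and none rose in XY. Tgfb3 fell by 1.96 in XX (SE 0.38, adjusted p = 0.0015), at least 2.85-fold, and with the common floor the difference was -1.14 (adjusted p = 0.0014). Vegfb, a ligand of FLT1, read 4.17 and 4.29 in XY input and 2.65 and 2.24 in XY IP. It fell by 1.78 in XY (SE 0.39, adjusted p = 0.0043) and was detected on both IP arrays, so its fall was measured on both sides.

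A few vascular genes went the other way with detected signal. Apln, the ligand of the apelin receptor, read -0.50 and -0.07 in XX input and 3.42 and 2.09 in XX IP, and 0.17 and 0.26 in XY input and 2.30 and 3.12 in XY IP. It was detected on all 8 arrays. It rose by 3.04 in the XX IP (SE 0.50, adjusted p = 0.00059), and the XY rise was 2.50 (SE 0.50, adjusted p = 0.0026). Hey1, a transcription factor downstream of Notch, read 2.75 and 2.95 in XY input and 5.71 and 6.49 in XY IP and rose by 3.25 (SE 0.43, adjusted p = 0.00026). Hhex, a homeobox factor of endothelial and blood precursors, rose by 2.82 in XX (SE 0.44, adjusted p = 0.00043). With the common floor the Hey1 call stood (adjusted p = 0.0081), while the calls of Apln in XX (1.73, adjusted p = 0.104) and XY (1.69, adjusted p = 0.131) and of Hhex in XX (1.16, adjusted p = 0.102) were lost. Of the 8 that passed upwards in XX, 5 were detected on both IP arrays (Apln, Hhex, Gata2, Ctnnb1 and Bmpr2), and of the 6 in XY, 4 were (Hey1, Apln, Ctnnb1 and Ptprb). Those that passed upwards with no IP array of that sex detecting them were Pgf, Tgfb1 and Notch1 in XX and Clec14a in XY. Apart from Apln, Hey1 and Hhex these were named after their values were seen. Of the transcription factors, 4 of 15 fell and 2 rose in XX, and 3 fell and 2 rose in XY. Of the other endothelial products, 2 of 9 fell and 1 rose in XX, and 4 fell and 2 passed upwards in XY. In the difference between the sexes no companion gene passed.

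**Figure D4:**
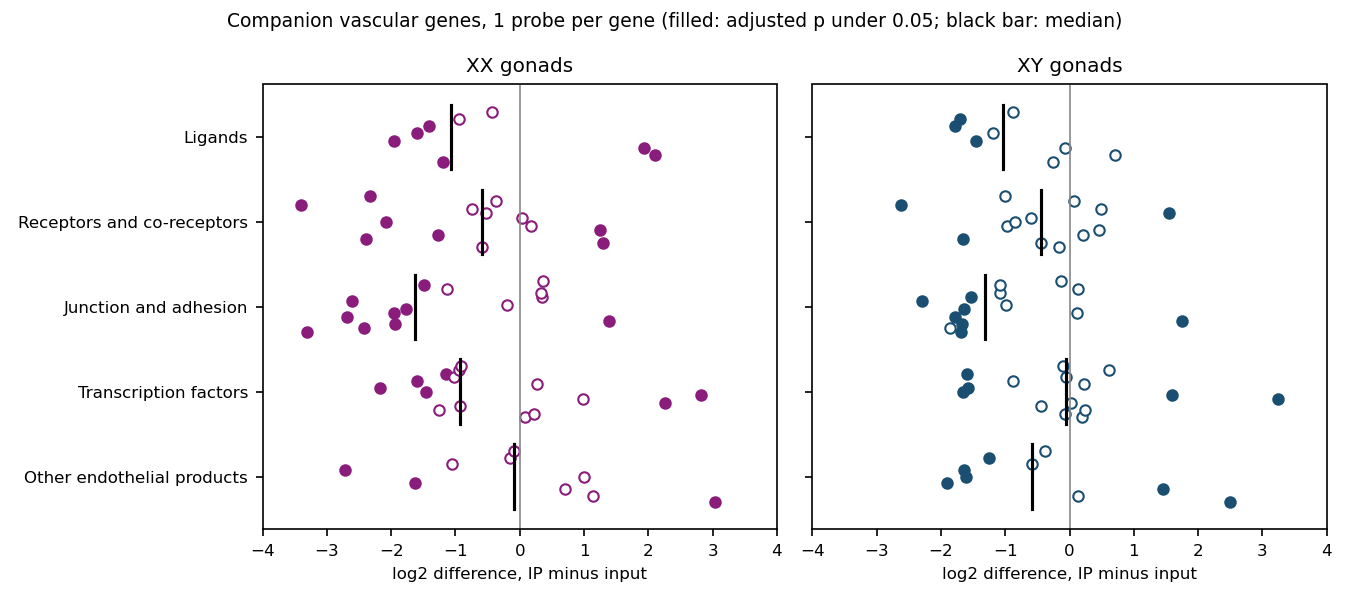
Log2 difference of IP minus input (horizontal axes) for the 59 tested companion genes in 5 lists, 1 point per gene, in XX and XY gonads; filled points have an adjusted p under 0.05 and black bars are list medians. The median of the junction and adhesion list lies at -1.63 in XX and -1.31 in XY, where 3 and 4 of its 14 genes were detected on both IP arrays, and single genes such as Apln and Hey1 lie to the far right.

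Between the inputs of the sexes, 6 of the 59 companion genes were lower in XX and 1 was higher, where 6.1% and 5.87% of all tested probes were. They are named here after their values were seen. Vwf, the clotting factor of endothelium and platelets, was lower by 4.40 (mean -1.32 against 3.08), and Vegfd, a ligand of vascular growth factor receptors, was lower by 3.71 (-0.43 against 3.29). Jam2 was lower by 3.03 and Gja5, a connexin of arterial endothelium, by 2.83, while Tgfb1 and Pgf were lower by 1.79 and 1.41. Tgfb1 and Pgf were detected on only 1 XX input and on no IP array, and entered testing only through XY input. A lower XX level was thus partly built into their selection, and their place among the 6 is not read as a sex difference. Calcrl, a receptor for adrenomedullin, was higher in XX by 1.76.

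Other cells of the gonad were read in the same arrays by marker lists, and their part in these results was not tested. Levels are summed over a list's tested genes as signal relative to the array's 75th percentile. Germ cell markers, 9 of 9 tested, passed upwards in 8 (XX) and 7 (XY) cases. Their sum went from 106 to 117 in XX input to 436 to 455 in XX IP, and from 203 to 235 in XY input to 751 to 1140 in XY IP. A large part of these IP sums came from 1 gene in each sex. In XX IP it was Dazl, the transcript of the precipitated protein itself (log2 levels 8.23 and 7.83), and in XY IP Dppa3 (8.46 and 9.35). Of 7 markers of pericytes and smooth muscle, cells wrapped around vessels, 4 fell and 1 passed upwards in XX and 3 fell in XY. Their sum went from 24.7 to 30.9 down to 4.74 to 6.04 in XX and from 62.0 to 68.1 down to 12.0 to 23.6 in XY. Of 5 tested erythroid markers (of 7), 4 fell in XX and 2 in XY, with sums of 245 to 353 and 334 to 421 in the inputs and 34.3 to 95.4 and 63.6 to 127 in the IPs. All 3 tested interstitial markers (of 4) fell in XX and 2 in XY, with sums of 33.1 to 40.2 and 69.9 to 73.4 in the inputs and 3.91 to 5.85 and 10.2 to 18.7 in the IPs.

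Macrophage markers were detected in the inputs but on no IP array. Of 7 tested (of 8), 6 were detected on both XX inputs and 7 on both XY inputs. In XX 1 passed upwards, and none fell in either sex. The sums were 2.84 to 3.74 and 3.02 to 3.25 in the inputs. Those of the IPs, 2.85 to 3.95 and 3.19 to 4.84, rest on undetected probes and are not read against the inputs. Of 4 platelet markers 1 was tested and it did not pass. Markers of the sex-specific somatic cells followed the sex of the gonad: in XX IP all 3 tested ovarian supporting cell markers (of 4) fell, with sums from 88.9 to 90.5 down to 12.2 to 19.6, and in XY IP 3 of 4 tested Leydig markers fell, with sums from 77.3 to 82.3 down to 10.4 to 17.0, and 1 of 4 Sertoli markers did, with sums from 27.6 to 32.1 down to 5.79 to 9.59. That marker, named after its values were seen, was Dhh, a hedgehog ligand of Sertoli cells, which read 4.43 and 4.68 in XY input and 0.33 and 1.97 in XY IP, whereas Sox9, the Sertoli transcription factor, differed by 0.01 (adjusted p = 0.987). In the gonads of the other sex the input sums were lower. They were 12.6 to 13.6 for the ovarian list in XY, and 1.41 to 1.66 for Sertoli and 2.43 to 3.49 for Leydig in XX. In XY IP 1 ovarian supporting cell marker passed upwards and 1 fell. In XX IP 2 Sertoli markers passed upwards and 1 Leydig marker fell. In XX, 2 of the 8 germ cell markers that passed upwards (Pou5f1 and Sall4) were detected on no XX IP array. The upward calls of pericyte, macrophage, Sertoli and ovarian supporting cell markers came from probes that no IP array of that sex detected.

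Finally, the 5 members detected on all inputs were averaged into 1 profile over the 8 arrays and set against 14342 named probes that were detected on all inputs. The most similar were Ptgs1 (Pearson r = 0.985), S100a4 (0.981), Slc30a7 (0.978), Extl2 (0.977) and Il1rl2 (0.976), each over 8 arrays. A correlation of at least 0.9 was reached by 160 probes, 1.12% of the candidates. These arrays share the step from input to IP and, within a sex, a slide, so the values only describe which profiles looked alike.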

How the data were processed

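DAZL RIP RNA and input RNA of E14.5 gonads were hybridized to 1-colour Agilent whole mouse genome arrays, 8 in 4 groups of 2, grouped by the labels. The deposited scanner files hold processed signal intensity per spot, from which the extraction software (Agilent Feature Extraction, given as version 9.5 in the submitters' processing notes) had subtracted a background, not normalized between arrays. The authors' table holds log2 values, made by them after setting values under 1 to 1 and scaling to the 75th percentile. It was used as an alternative only. Coordinates are those of the files (mm8). Exons and UTRs of that build are not stated, since no annotation of it was used, and the scanner files list no probe sequences. Gene names were updated through a GRCm38.p6 gene table.

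Outlier spots were left out, signals under 1 set to 1, spots of a probe averaged, and log2 signals taken relative to each array's 75th percentile. No probe was saturated. Of 41174 probes, 73 had no usable spot on some array. Testing used the 18265 probes that both arrays of 1 or more groups marked as well above background. The model was fitted by limma 3.58.1 under R 4.3.3 (1 mean per group, all 8 arrays, empirical Bayes, no block, two-sided), with Benjamini-Hochberg adjustment over all these probes, and a probe passed at an adjusted p under 0.05. The script was tested on simulated data. The members and lists were chosen with earlier results of these data known. Every member probe is named. From each companion list only the gene with the largest difference in each sex, among those detected on both inputs, is given with its statistics, apart from those stated to be chosen after their values were seen. For a gene with several probes in a list, the one with the highest mean signal was taken. Alternatives were other scalings, background corrections, filters, floors and tests, a replicate block and the omission of each array. The number of arrays limits the precision.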

Additional observations from a re-analysis of the deposited data

Results flagged for a closer look

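Tek, probe A_51_P130374, gave a level of 3.56 on XX IP replicate 1, well above background, although the probe lay outside all tests because no group detected it on both arrays. The other XX IP array read -1.80, the XY IPs read -0.60 and -2.08, and the 4 inputs ran from -4.02 to -3.14. The value rests on 1 spot of 1 array and was not repeated.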

How the results depend on the processing

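No member call depended on the authors' table, which gave the same counts. The XX fall of Kdr passed in all 19 alternatives. The Cdh5 fall in XX passed in 17, and not with the common floor (-0.23) or without moderated variances. Of 532 alternative values of single probes over the 4 contrasts, 445 kept their side of the threshold and did not change sign (12 of them were exactly 0 with the common floor and so had no direction), 27 became called, 23 lost the call and 37 changed sign. Causes were not tested. Restricting to probes detected on all 8 arrays left 0 member probes, so it gave no member value.

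Counts of member probes (higher and lower; main 1 and 2 in each IP contrast, 0 and 0 otherwise) changed as follows. Scaling to the 50th percentile gave 0 and 4 in both XX and XY. The 75th percentile over probes detected on all arrays gave 0 and 3 in XX (Eng joined, -1.44, adjusted p = 0.037), 0 higher in XY and 1 higher in the inputs. Quantile normalization gave 0 higher in both sexes, and the 2 lower in XY were not the same probes, since Cdh5 lost its call there. Normexp gave 2 higher in XX, 0 and 0 in XY and 1 higher in the inputs, and with outlying local backgrounds replaced 2 higher in XX and 1 higher in the inputs. Without a filter, 16 probes entered, most of them undetected, with 10 higher in XX and 9 in XY. The common floor gave 0 and 1 in XX, 0 and 0 in XY, 1 lower in the difference between the sexes and 1 higher in the inputs. Fitting only the arrays compared gave 2 and 1 in XY and 1 and 2 in the inputs. Without moderated variances 1 fell in each sex. The 4-fold minimum left 0 higher in XX, and 0 and 0 in XY. Leaving out 1 array gave 1 to 3 higher and 2 to 3 lower in XX, 0 to 2 higher and 0 to 3 lower in XY, 0 to 0 in the difference, and 0 to 1 higher and 0 to 0 lower in the inputs.

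No source says that a shared replicate number marks a shared lot or day, so the numbers were not taken as pairs. The deviations of same-numbered arrays correlated at 0.07 between XX input and IP and at 0.09 between XY input and IP, although at 0.44 between the IPs and 0.28 between the inputs of the sexes. With the replicate block 1 member probe (Kdr) was higher in XX input, and no other member count moved.

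Signs changed as follows. With the 50th percentile, which moved the median of all probes to -1.92 in XX and -1.90 in XY, the values were -1.01 (Flt1 A_52_P520859), -0.12 (Flt1 A_52_P307922) and -0.84 (Esam1) in XX and -1.28 (Flt1 A_51_P398723), -1.86 (Flt1 A_52_P520859, adjusted p = 0.0062) and -0.62 (Esam1) in XY. With quantile normalization (medians -0.74 and -0.73), Flt1 A_52_P520859 was -0.52 in XX and -0.82 in XY and Flt1 A_52_P307922 was -0.15 in XX. With the percentile over detected probes (medians -0.34 and -0.36), Flt1 A_52_P520859 was -0.32 in XY. With normexp, without and with replaced backgrounds, Eng was 0.16 and 0.17 in XX and Flt1 A_51_P398723 was -0.41 and -0.44 in XY. In the difference between the sexes, normexp gave 0.57 for Flt1 A_52_P307922, 0.31 for Eng and 0.15 for Esam1, with replaced backgrounds 0.14 for Flt1 A_52_P307922, 0.30 for Eng and 0.085 for Cdh5, and the common floor gave 0.49 for Cdh5 and 0.31 for Esam1. In the inputs normexp gave 0.14 for Cdh5 and -0.13 for Esam1. Leaving out 1 array gave -0.27 to 0.28 for Flt1 A_52_P520859 in XY, -0.63 to 0.53 for Flt1 A_52_P307922, -0.60 to 0.31 for Eng and -1.04 to 0.90 for Esam1 in the difference between the sexes, and -0.16 to 0.37 for Esam1 in the inputs.

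The companion counts, an alternative added after the data were seen, were 0 higher and 45 lower in XX and 0 and 44 in XY with the 50th percentile, 3 and 9 in XX and 2 and 9 in XY with the common floor, 6 and 10 in XX and 3 and 7 in XY without moderated variances, and 0 and 0 in XY with normexp. Leaving out 1 array gave 11 to 24 lower in XX and 2 to 25 in XY. For the inputs they were 0 and 1 with quantile normalization and 6 and 15 from the input arrays alone.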
